A study of Homo sapiens with 12 samples.

Results

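The members described here were 38 genes that encode proteins of the centromere and the kinetochore, out of 60671 genes listed in the deposited table. They were chosen by gene name, and every one was present and passed the filter on low values. They were sorted by role into centromeric chromatin and its loading factors (5 genes), the constitutive centromere network (15 genes), the KMN network of outer kinetochore proteins (10 genes), the SKA complex (3 genes), the fibrous corona (2 genes), the shugoshins (2 genes) and CENPJ (1 gene).

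The study asked how overexpression of PTPN21, a tyrosine phosphatase with a FERM domain, alters gene expression in cells labelled Jurkat, a line derived from a human T cell leukemia, under vincristine (VCR). RNA was sequenced in 4 groups of 3 libraries each, all after 48 h of treatment: NC+DMSO, NC+VCR, PTPN21+DMSO and PTPN21+VCR. PTPN21 cells carried a lentiviral, FLAG-tagged PTPN21 construct driven by the SFFV promoter, and NC cells served as the control and are called WT in the labels, whereas the methods describe a GFP vector control. DMSO was the solvent control for VCR, and the dose of VCR used for these RNA libraries is not stated. The labels do not say that the replicates were separate cultures, so the p-values measure the spread between these libraries, which may be technical.

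The centromere is marked by nucleosomes that contain the histone H3 variant CENP-A, on which the constitutive centromere network assembles. During mitosis this network recruits the KMN network, whose NDC80 complex grips the plus ends of spindle microtubules, while the SKA complex and the corona proteins stabilise and extend that contact. Most of these genes are transcribed periodically, late in the cell cycle, and VCR blocks the cycle in mitosis by preventing tubulin from polymerising.

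Promoters of 32 of the 38 genes had an entry in the RefSeq promoter table (GRCh38.p14), and MIS18A, CENPH, CENPL, CENPM, KNL1 and CENPJ had none. Each window held 250 bases before the start site and 50 after it, and both strands were searched for the letters of 3 elements linked to periodic transcription. The CHR element (TTTGAA) was present in the windows of 12 of the 32 genes (37.5%) and in 15.2% of all 35116 promoter windows. The CCAAT box (CCAAT) was present for 20 genes (62.5%) and in 34.6% of all windows. An E2F motif (TTTGGCGC, TTTCGCGC or TTTCCCGC) was present for 4 genes (12.5%), which were CENPA, CENPU, MIS12 and OIP5, and in 2.74% of all windows. A gene counted if any of its windows held the element, and some genes (such as MIS12, SGO2 and ZWINT) had extra windows. Shares of genes and shares of windows are therefore not strictly alike. These matches are descriptions of letters, not of bound sites, and overlaps between motifs were not removed.
The 250 bases before the start site are shown for 4 genes that passed the test with VCR in NC cells, CENPA and CENPE higher and CENPB and SPC24 lower, with matched letters of any of the 3 elements in capitals (ATTGG is CCAAT on the other strand). CENPA lies at chr2:26785806-26786055 on the plus strand, CENPB at chr20:3786741-3786990 on the minus strand, SPC24 at chr19:11155783-11156032 on the minus strand and CENPE at chr4:103198344-103198593 on the minus strand.
CENPA: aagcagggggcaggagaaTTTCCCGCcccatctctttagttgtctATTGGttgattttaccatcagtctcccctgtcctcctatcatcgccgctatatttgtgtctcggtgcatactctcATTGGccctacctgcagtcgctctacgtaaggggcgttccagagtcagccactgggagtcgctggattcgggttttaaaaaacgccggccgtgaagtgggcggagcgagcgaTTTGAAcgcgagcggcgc
CENPE: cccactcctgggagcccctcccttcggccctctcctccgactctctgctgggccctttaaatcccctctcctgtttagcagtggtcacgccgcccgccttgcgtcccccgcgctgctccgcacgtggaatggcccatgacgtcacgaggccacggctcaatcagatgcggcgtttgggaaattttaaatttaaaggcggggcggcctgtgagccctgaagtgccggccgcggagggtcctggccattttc
CENPB: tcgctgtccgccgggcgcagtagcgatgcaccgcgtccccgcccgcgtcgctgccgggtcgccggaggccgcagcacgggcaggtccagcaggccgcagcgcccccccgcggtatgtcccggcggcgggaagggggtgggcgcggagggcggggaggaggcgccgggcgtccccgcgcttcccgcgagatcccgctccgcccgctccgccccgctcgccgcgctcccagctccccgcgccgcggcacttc
SPC24: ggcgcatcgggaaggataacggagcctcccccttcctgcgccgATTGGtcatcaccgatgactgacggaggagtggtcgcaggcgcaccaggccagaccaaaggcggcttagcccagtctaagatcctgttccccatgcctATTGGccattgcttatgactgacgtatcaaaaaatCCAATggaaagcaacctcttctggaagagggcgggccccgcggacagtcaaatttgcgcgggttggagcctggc
The CENPA stretch held 1 E2F motif, 2 CCAAT boxes and 1 CHR element, and the SPC24 stretch held 3 CCAAT boxes. None of these letters stood in the CENPB and CENPE stretches, which says only that they are not in this window.

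The deposited values are FPKM, which scale fragments by gene length and by library size. They carry no depth, and an estimate from the steps between low values was 28780000 to 35560000 fragments over the 6 NC libraries and 40940000 to 47680000 over the 6 PTPN21 libraries, on a scale that may be off by a constant factor. Depth and construct cannot be told apart. PTPN21 itself was at most 0.569 FPKM in any NC library and at least 4.34 FPKM in any PTPN21 library. Within its group the second PTPN21+VCR library was the highest for 25 of the 38 members and the third NC+DMSO library for 18, and the first PTPN21+DMSO library was the lowest for 22.

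The labelled cell type was checked against its markers. Of 8 markers chosen for a T cell line, CD3D (61.8 to 140 FPKM), PTPRC (8.07 to 33.1 FPKM) and TAL1 (3.23 to 16.5 FPKM) were detected. However, LCK was listed at 0 in all 12 libraries, and CD2, CD3E, CD7 and CD3G did not exceed 0.0287, 0.146, 0.605 and 1.03 FPKM. Of 11 further T lineage genes, looked at after these values were seen, 8 stayed under 1 FPKM in every library (CD5, CD28 and CD8A were at 0), and the T cell receptor constant genes TRBC1, TRAC and TRBC2 reached 4.15, 3.01 and 1.13 FPKM. None of 26 genes used by most cells was listed at 0. Some markers of other lineages were high: HBA1 was 49.4 to 190 FPKM, KRT8 236 to 1186 FPKM and EPCAM 58.4 to 123 FPKM. HBB, the other erythroid marker of the list, did not exceed 1.66 FPKM. Among genes looked at afterwards, the erythroid regulator GATA1 was 13.5 to 107 FPKM and the fetal globin gene HBG2 560 to 2985 FPKM. These libraries therefore go against the label Jurkat for most defining T cell markers, and they are called by their group names here.
Several of these lists moved with VCR. The summed FPKM of the 3 epithelial markers was 387 to 588 in NC+DMSO, 1153 to 1359 in NC+VCR, 510 to 579 in PTPN21+DMSO and 1203 to 1676 in PTPN21+VCR, and that of the 3 fibroblast markers, which was VIM (COL1A2 was at 0), was 190 to 205, 1012 to 1315, 275 to 333 and 1320 to 1516. The 2 erythroid markers, nearly all HBA1, summed to 82.5 to 87.5, 49.4 to 59.5, 133 to 190 and 60.2 to 75.5 FPKM in the same order. KLF1, an erythroid regulator looked at afterwards, averaged 25.1 and 34.8 FPKM in the DMSO groups and 2.33 and 3.66 FPKM in the VCR groups (NC before PTPN21). The 8 T cell markers, mostly CD3D with some PTPRC and TAL1, summed to 102 to 124, 142 to 169, 141 to 165 and 139 to 147 FPKM. The 3 myeloid markers, nearly all CD68, summed to 422 to 477, 187 to 255, 297 to 359 and 127 to 183 FPKM. The 3 B cell markers (MS4A1 at 0) summed to at most 1.79 FPKM in any library. The part of these lists in the results below was not tested.

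The members covered a wide range of levels, with 5 to 12 of them under 10 FPKM in a group. Their median FPKM was 21.5 in NC+DMSO, 23.1 in NC+VCR, 26.7 in PTPN21+DMSO and 21.9 in PTPN21+VCR, against medians of 7.90, 5.70, 6.67 and 5.75 over all 11591 genes tested. CENPW, a histone-fold subunit of the constitutive network, and NDC80, the microtubule-binding subunit of the outer kinetochore, were the highest members in every group, with means of 165 to 249 and 136 to 188 FPKM. CENPH came next in every group, with means of 79.9 to 86.7 FPKM. CENPI, a subunit of the same network, had the lowest mean in 3 of the groups, with 1.82 FPKM in NC+DMSO, 0.642 in NC+VCR and 1.71 in PTPN21+DMSO, while CENPB was lowest in PTPN21+VCR.

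The first question was how the members responded to VCR in each kind of cell. In NC cells 5 members were higher and 12 lower with VCR at an adjusted p under 0.05 (limma on log2(FPKM + 1), a scale that understates changes of low genes). Over all genes tested 7.91% were called higher and 28.3% lower (36.2% in all), so the member counts are to be read against those shares. In PTPN21 cells 6 members were higher and 6 lower, against 9.22% and 19.3% of all genes (28.5% in all). The median log2 fold change of the members was -0.38 in NC cells and -0.14 in PTPN21 cells, close to the medians of all genes, -0.36 and -0.17.
The share of lower calls depended on the scaling. When each library was rescaled by median ratios, the all-gene median became -0.03 in NC cells and -0.02 in PTPN21 cells, and 14.9% of all genes were called higher and 11.5% lower in NC cells, 13.3% and 12.7% in PTPN21 cells. Under that scaling 8 members were higher and 3 lower in NC cells, and 6 were higher and 3 lower in PTPN21 cells. The 3 lower members were CENPB, CENPM and SPC24 in both. Since these are bulk libraries, fewer cells in a given phase and less RNA per cell cannot be told apart.

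The NC and PTPN21 comparisons share no library, but the fit took each gene's spread from all 12 libraries. Calls in both comparisons are therefore not fully independent. Called higher in both were NUF2, CENPE and CENPJ, which were 3 of the 5 members called higher in NC cells and 3 of the 6 in PTPN21 cells. Called lower in both were CENPB, CENPM, DSN1, SPC24 and SGO1, which were 5 of the 12 and 5 of the 6. No member was called in opposite directions, and 17 were called in neither. Of all genes, 0.104% were higher in NC cells and lower in PTPN21 cells, and 0.0518% the reverse. Higher in both were 7.89% of the members and 5.02% of all genes tested, lower in both 13.2% and 13.8%, and called in neither 44.7% and 54.2%.

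**Figure D1:**
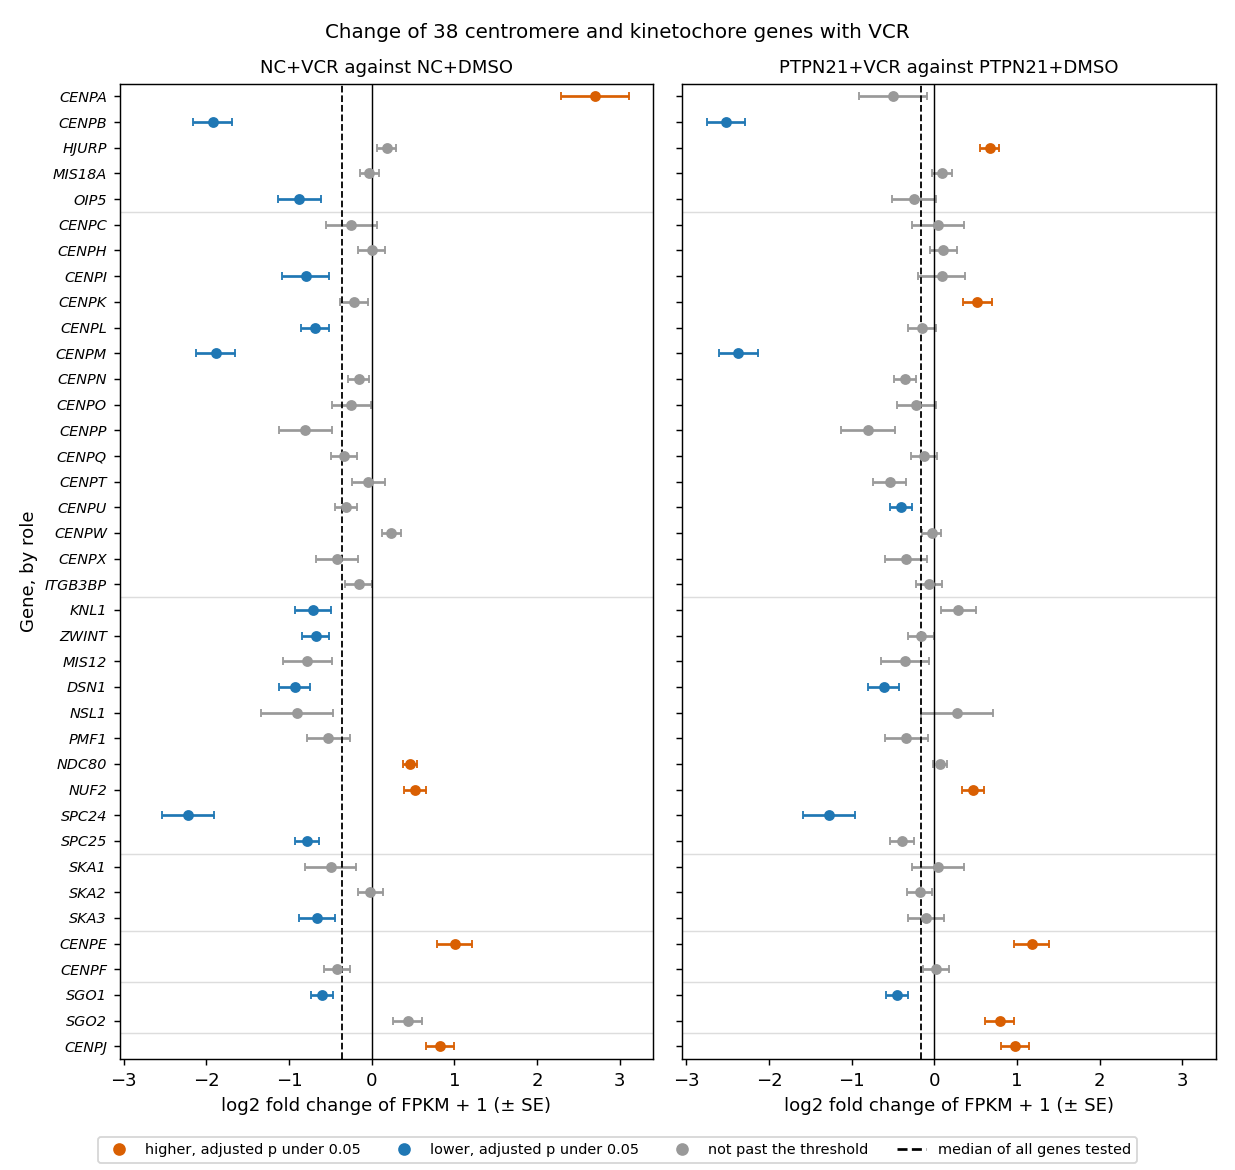
Log2 fold change of FPKM + 1 (x axis, ± standard error) of the 38 members, ordered by role (y axis), for VCR against DMSO in NC cells (left) and in PTPN21 cells (right). Orange and blue points passed an adjusted p of 0.05 (5 higher and 12 lower on the left, 6 and 6 on the right), grey points did not, and the dashed line marks the median of all genes tested (-0.36 and -0.17).

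Among the genes of centromeric chromatin, CENPA showed the largest rise with VCR in NC cells, CENPB fell in both kinds of cell, and the loading factors are described after them. CENPA (ENSG00000115163, chromosome 2 from 26764289 to 26801067 in GRCh38, plus strand) encodes the histone H3 variant that marks the centromere. Its FPKM was 3.79, 8.62 and 17.1 in NC+DMSO and 48.3, 64.8 and 69.3 in NC+VCR. In PTPN21+DMSO it was 46.0, 47.2 and 62.4, and in PTPN21+VCR 23.1, 55.6 and 35.8. NC+DMSO thus stood apart below the other 3 groups, which ran into each other, and the libraries of NC+DMSO and of PTPN21+VCR were widely spread.
VCR raised CENPA in NC cells by 2.70 on the log2 scale (SE, the standard error, 0.41, adjusted p by limma 0.000483), a 6.19-fold ratio of mean FPKM, and the call held in all 22 alternative analyses. Relative to the median of all genes, the difference was 3.06. In PTPN21 cells its log2 fold change with VCR was -0.50 (SE 0.41, adjusted p by limma 0.39), and the groups overlapped. CENPA shares 7.0% of its exon bases with SLC35F6 on the same strand.

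HJURP is the chaperone that deposits CENP-A. Its FPKM was 47.5, 44.3 and 52.3 in NC+DMSO and 52.6, 53.0 and 57.8 in NC+VCR, without overlap, with a log2 fold change of 0.18 (SE 0.12, adjusted p by limma 0.247). Under median ratio scaling it was 0.57 and passed (adjusted p by limma 0.00225). In PTPN21+DMSO it was lower, 31.2, 36.0 and 35.4, and in PTPN21+VCR 59.5, 53.3 and 52.2. The PTPN21 groups did not overlap, and VCR raised HJURP there by 0.67 (SE 0.12, adjusted p by limma 0.00141).
The ratio of CENPA to HJURP, both per length, was 0.0798 to 0.326 in NC+DMSO, 0.92 to 1.22 in NC+VCR, 1.31 to 1.76 in PTPN21+DMSO and 0.389 to 1.04 in PTPN21+VCR. The NC+DMSO libraries were below every other library in this ratio.

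CENPB (ENSG00000125817, chromosome 20 from 3783851 to 3786690, minus strand) binds the CENP-B box of alpha satellite DNA. Its FPKM was 13.9, 18.1 and 25.9 in NC+DMSO and 4.18, 4.07 and 4.39 in NC+VCR. In PTPN21+DMSO it was 13.1, 11.1 and 10.4, and in PTPN21+VCR 1.51, 0.690 and 1.42. The VCR groups lay below the DMSO groups without overlap, and PTPN21+VCR was the lowest. VCR lowered CENPB by a log2 fold change of -1.92 in NC cells (SE 0.24, adjusted p by limma 0.000122) and of -2.52 in PTPN21 cells (SE 0.24, adjusted p by limma 1.80e-05), that is 4.59-fold and 9.54-fold in mean FPKM. Both calls held in all 22 alternatives. Relative to the median of all genes, the differences were -1.56 and -2.35.
The factors that license CENP-A deposition were MIS18A and OIP5. MIS18A ranged from 26.1 to 36.8 FPKM over all 12 libraries and was not called with VCR in either comparison. OIP5, its partner in the MIS18 complex, had means of 9.76 FPKM in NC+DMSO and 5.07 in NC+VCR and was called lower there (log2 fold change -0.87, adjusted p by limma 0.0236), while in PTPN21 cells its log2 fold change was -0.25 (adjusted p by limma 0.527). OIP5 shares 38% of its exon bases with the antisense gene OIP5-AS1, and since strandedness is not stated, reads of the pair cannot be separated.

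**Figure D2:**
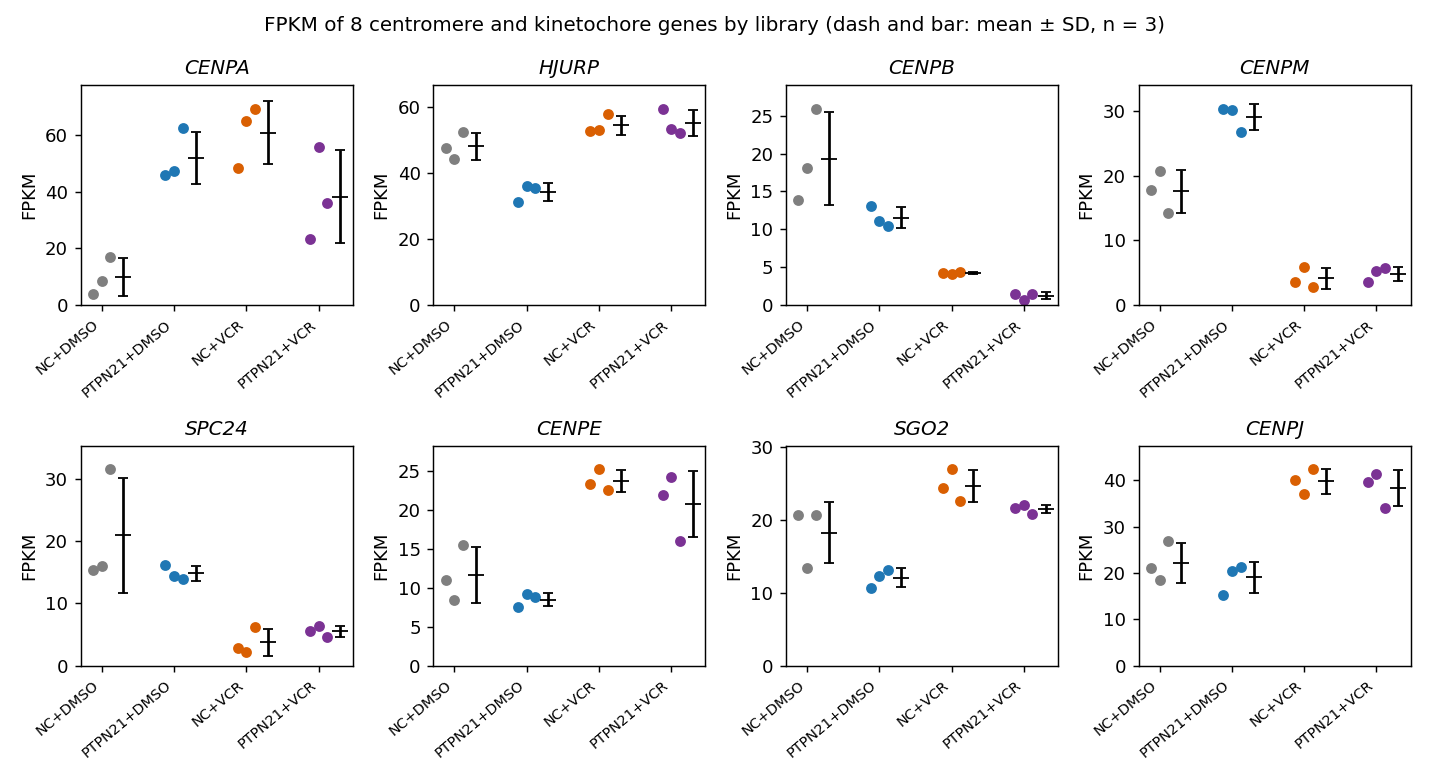
FPKM (y axes, linear and starting at 0) of 8 members in each of the 12 libraries by group (x axes), with the mean ± SD of each group of 3 beside the points. CENPA was at most 17.1 in NC+DMSO and at least 23.1 elsewhere, CENPB, CENPM and SPC24 were lower and CENPE and CENPJ higher in both VCR groups than in their DMSO groups.

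In the constitutive centromere network, which links CENP-A chromatin to the outer kinetochore, most genes were not called with VCR. In NC cells 0 of its 15 members were higher and 3 lower (CENPM, CENPL and CENPI), and in PTPN21 cells 1 was higher (CENPK) and 2 lower (CENPM and CENPU). The medians of the list were -0.25 and -0.15, against -0.36 and -0.17 for all genes. Of all genes tested, 7.91% were called higher and 28.3% lower in NC cells, and 9.22% and 19.3% in PTPN21 cells. Under median ratio scaling 1 network gene was higher and 1 lower in each comparison.
CENPM (ENSG00000100162, chromosome 22 from 41938721 to 41947164, minus strand), a subunit that binds CENP-I within the CENP-H/I/K/M assembly, was the exception in size. Its FPKM was 17.8, 20.7 and 14.2 in NC+DMSO and 3.59, 5.95 and 2.85 in NC+VCR. It was 30.4, 30.1 and 26.7 in PTPN21+DMSO and 3.64, 5.28 and 5.69 in PTPN21+VCR. The DMSO and VCR groups were far apart in both kinds of cell, with log2 fold changes of -1.89 (SE 0.24, adjusted p by limma 0.000134) and -2.37 (SE 0.24, adjusted p by limma 2.73e-05), and both calls held in all 22 alternatives.
Its partners in the same assembly are CENPH, CENPI and CENPK. CENPH had means of 81.7 and 82.6 FPKM in NC+DMSO and NC+VCR and 79.9 and 86.7 FPKM in PTPN21+DMSO and PTPN21+VCR, and was not called (adjusted p = 0.995 and 0.658, limma). CENPK averaged 47.1 and 40.8 FPKM in the NC groups and 29.6 and 42.8 FPKM in the PTPN21 groups, with log2 fold changes of -0.21 (adjusted p by limma 0.347) and 0.52 (adjusted p by limma 0.0382). CENPI was called lower in NC cells (log2 fold change -0.80, adjusted p by limma 0.0433), but this call held in only 9 of the 21 alternatives that kept the gene, and that of CENPK in PTPN21 cells in 12 of 22.
CENPW, which forms a histone-fold dimer with CENP-T, was 175, 183 and 137 FPKM in NC+DMSO and 184, 198 and 197 FPKM in NC+VCR. It was 269, 242 and 236 FPKM in PTPN21+DMSO and 249, 234 and 247 FPKM in PTPN21+VCR. The VCR and DMSO values overlapped in PTPN21 cells and were not called in either comparison, with log2 fold changes of 0.24 (adjusted p by limma 0.126) and -0.03 (adjusted p by limma 0.871). CENPT, its partner, ranged from 13.9 to 26.8 FPKM over the 12 libraries and was not called. The FPKM ratio of CENPW to CENPT was 5.33 to 11.6 in NC+DMSO, 9.56 to 11.4 in NC+VCR, 8.82 to 12.8 in PTPN21+DMSO and 11.9 to 17.9 in PTPN21+VCR.
The other network genes, CENPC, CENPN, CENPO, CENPP, CENPQ, CENPX and ITGB3BP, were not called with VCR in either comparison. Of these, CENPP shares 38% and CENPO 27% of its exon bases with a gene on the opposite strand.

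The KMN network makes the direct contact with microtubules. In NC cells 2 of its 10 genes were higher with VCR (NDC80 and NUF2) and 5 lower (SPC24, SPC25, DSN1, ZWINT and KNL1), with a median log2 fold change of -0.74 against -0.36 for all genes. In PTPN21 cells 1 was higher (NUF2) and 2 lower (SPC24 and DSN1), with a median of -0.25 against -0.17. Of all genes tested, 7.91% were called higher and 28.3% lower in NC cells, and 9.22% and 19.3% in PTPN21 cells. Under median ratio scaling 2 KMN genes were higher and 1 lower in NC cells, and 1 higher and 1 lower in PTPN21 cells. Most of the lower KMN calls in NC cells thus depended on the scaling.
The calls divided the NDC80 complex, a rod of 4 proteins in which NDC80 and NUF2 form the end that binds the microtubule and SPC24 and SPC25 the end that binds the inner kinetochore. NDC80 (ENSG00000080986, chromosome 18 from 2571511 to 2616635, plus strand) was 140, 142 and 127 FPKM in NC+DMSO and 188, 190 and 186 FPKM in NC+VCR. It was 166, 170 and 167 FPKM in PTPN21+DMSO and 175, 178 and 175 FPKM in PTPN21+VCR. The groups did not overlap in either comparison, but the log2 fold change was 0.46 in NC cells (SE 0.09, adjusted p by limma 0.00168) and only 0.07 in PTPN21 cells (SE 0.09, adjusted p by limma 0.591).
NUF2 averaged 50.8 ± 6.53 FPKM in NC+DMSO, 73.4 ± 6.38 in NC+VCR, 52.8 ± 4.74 in PTPN21+DMSO and 73.6 ± 6.72 in PTPN21+VCR (SD, n = 3). Its log2 fold change with VCR was 0.53 (adjusted p by limma 0.00898) and 0.47 (adjusted p by limma 0.0193).
At the other end of the rod the values were lower with VCR. SPC24 (ENSG00000161888, chromosome 19 from 11131520 to 11155808, minus strand) was 15.3, 15.9 and 31.5 FPKM in NC+DMSO and 2.90, 2.17 and 6.17 FPKM in NC+VCR. It was 16.2, 14.4 and 13.9 FPKM in PTPN21+DMSO and 5.61, 6.39 and 4.62 FPKM in PTPN21+VCR. No VCR library reached a DMSO library, and the log2 fold changes were -2.22 (SE 0.32, adjusted p by limma 0.000324) and -1.28 (SE 0.32, adjusted p by limma 0.00999), both called in all 22 alternatives.
SPC25 was 75.2, 72.9 and 62.4 FPKM in NC+DMSO and 34.8, 48.3 and 38.8 FPKM in NC+VCR. It was 68.7, 76.1 and 68.4 FPKM in PTPN21+DMSO and 47.6, 58.0 and 56.6 FPKM in PTPN21+VCR. Here too the VCR libraries were the lower ones in both comparisons, with log2 fold changes of -0.78 (SE 0.14, adjusted p by limma 0.00149) and -0.39 (SE 0.14, adjusted p by limma 0.0573), the second of which did not pass. Under median ratio scaling SPC25 was not called in either comparison.
Ratios between subunits do not depend on the scaling of a library. The FPKM ratio of NDC80 to SPC24 was 4.03 to 9.13 in NC+DMSO and 30.1 to 87.4 in NC+VCR, and 10.2 to 12 in PTPN21+DMSO and 27.8 to 37.9 in PTPN21+VCR. The ratio of NUF2 to SPC25 was 0.701 to 0.754 and 1.63 to 1.94 in the NC groups, and 0.717 to 0.764 and 1.20 to 1.52 in the PTPN21 groups. In both ratios every VCR library lay above every DMSO library. This follows from the values of the single subunits above and is not further support. A ratio also does not remove a difference in GC content, which was 40.1% for NDC80 and 53.4% for SPC24.

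**Figure D3:**
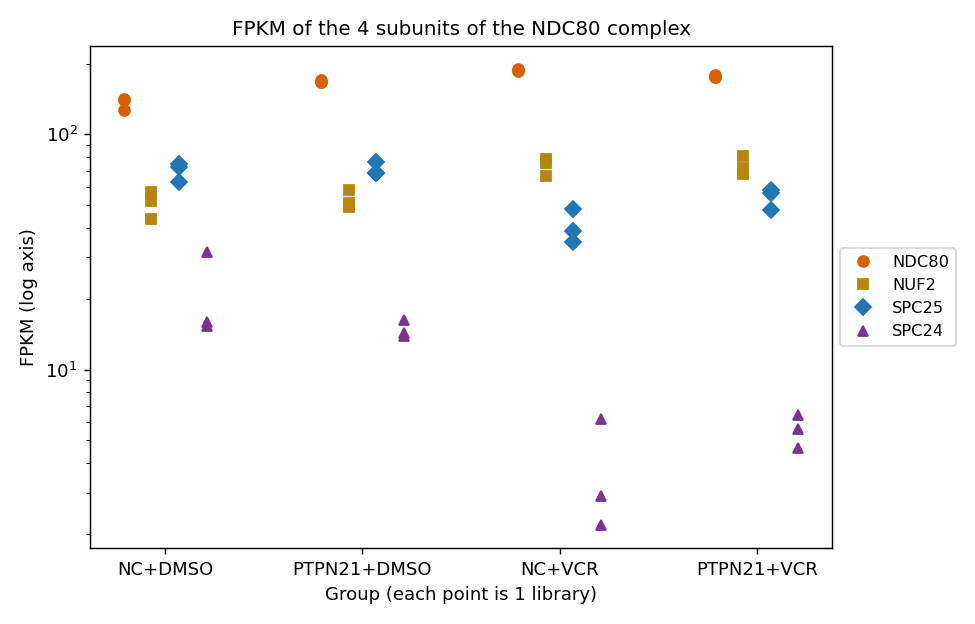
FPKM (y axis, log scale) of the 4 subunits of the NDC80 complex in each library (points) by group (x axis). NDC80 and NUF2 are at or above their DMSO levels in both VCR groups, while SPC25 and SPC24 are below theirs, SPC24 down to 2.17 FPKM in NC+VCR.

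The remaining KMN genes were at lower levels. DSN1, a subunit of the MIS12 complex that joins the inner and outer kinetochore, averaged 15.9 and 7.96 FPKM in NC+DMSO and NC+VCR and 20.8 and 13.3 FPKM in PTPN21+DMSO and PTPN21+VCR. It was lower with VCR in both, by log2 fold changes of -0.93 (adjusted p by limma 0.00268) and -0.61 (adjusted p by limma 0.0284). Under median ratio scaling DSN1 was not called in either comparison. The other subunits of that complex, MIS12, NSL1 and PMF1, were not called with VCR in either comparison.
KNL1, the scaffold on which checkpoint proteins gather, was 8.60, 8.66 and 14.6 FPKM in NC+DMSO and 5.29, 5.97 and 6.48 FPKM in NC+VCR. It was 4.28, 5.77 and 5.76 FPKM in PTPN21+DMSO and 6.28, 7.29 and 6.34 FPKM in PTPN21+VCR. With VCR its log2 fold change was -0.71 in NC cells (SE 0.21, adjusted p by limma 0.0226) and 0.29 in PTPN21 cells (SE 0.21, adjusted p by limma 0.338). ZWINT, which binds KNL1, averaged 45.5 and 28.1 FPKM in the NC groups and was called lower there (log2 fold change -0.68, adjusted p by limma 0.0068). The interaction test of ZWINT did not pass (adjusted p by limma 0.342). Under median ratio scaling neither KNL1 nor ZWINT was called with VCR.

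Of the SKA complex, which couples the kinetochore to shortening microtubules, 1 gene (SKA3) was called lower in NC cells and none in PTPN21 cells. SKA2, its most abundant gene, was 65.9, 50.7 and 65.5 FPKM in NC+DMSO and 51.9, 71.8 and 56.8 FPKM in NC+VCR. It was 81.5, 70.1 and 82.4 FPKM in PTPN21+DMSO and 64.6, 66.3 and 75.6 FPKM in PTPN21+VCR. All 4 groups overlapped with at least 1 other, and the log2 fold changes with VCR were -0.02 and -0.18. SKA3 had a log2 fold change of -0.66 in NC cells (adjusted p by limma 0.0345) and of -0.11 in PTPN21 cells (adjusted p by limma 0.756). Over all genes tested 28.3% were called lower in NC cells, and under median ratio scaling no SKA gene was called there.

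The corona genes differed from each other. CENPE (ENSG00000138778, chromosome 4 from 103105806 to 103198409, minus strand), a kinesin that moves chromosomes towards the spindle equator, was 10.9, 8.46 and 15.5 FPKM in NC+DMSO and 23.3, 25.2 and 22.5 FPKM in NC+VCR. It was 7.53, 9.13 and 8.78 FPKM in PTPN21+DMSO and 21.8, 24.2 and 16.0 FPKM in PTPN21+VCR. Every VCR library lay above every DMSO library, with log2 fold changes of 1.00 (SE 0.21, adjusted p by limma 0.00346) and 1.18 (SE 0.21, adjusted p by limma 0.00162), called in all 22 alternatives.
CENPF, a large corona protein that also binds microtubules, was 76.2, 57.2 and 90.9 FPKM in NC+DMSO and 56.3, 53.2 and 53.9 FPKM in NC+VCR. It was 45.2, 53.3 and 51.8 FPKM in PTPN21+DMSO and 52.4, 54.4 and 45.3 FPKM in PTPN21+VCR. The high NC+DMSO values were the widest spread of any group, and neither log2 fold change with VCR passed (-0.43, adjusted p by limma 0.0511, and 0.02, adjusted p by limma 0.952).

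The shugoshins, which shield centromeric cohesin until anaphase, moved apart. SGO1 was 50.7, 48.3 and 46.2 FPKM in NC+DMSO and 30.3, 28.7 and 35.9 FPKM in NC+VCR. It was 46.8, 44.9 and 45.7 FPKM in PTPN21+DMSO and 33.6, 37.7 and 29 FPKM in PTPN21+VCR. It was lower with VCR without overlap in both, with log2 fold changes of -0.60 (adjusted p by limma 0.00404) and -0.45 (adjusted p by limma 0.0223), but neither was called under median ratio scaling.
SGO2 was 20.7, 13.4 and 20.7 FPKM in NC+DMSO and 24.4, 26.9 and 22.6 FPKM in NC+VCR. It was 10.6, 12.4 and 13.2 FPKM in PTPN21+DMSO and 21.7, 22.0 and 20.9 FPKM in PTPN21+VCR. It was higher with VCR in PTPN21 cells (log2 fold change 0.79, SE 0.17, adjusted p by limma 0.00528), and in NC cells the log2 fold change was 0.43 (adjusted p by limma 0.0679). The ratio of SGO2 to SGO1 was 0.278 to 0.447 in NC+DMSO and 0.63 to 0.937 in NC+VCR, and 0.227 to 0.289 and 0.583 to 0.72 in the PTPN21 groups. The lack of overlap in this ratio again follows from the values of the single genes. SGO1 shares 17.7% of its exon bases with the antisense gene SGO1-AS1.
CENPJ (ENSG00000151849, chromosome 13 from 24882284 to 24922889, minus strand) bears a centromere name but is known as a centriole protein that controls centriole length. It was 21.1, 18.5 and 26.9 FPKM in NC+DMSO and 40.1, 37.0 and 42.4 FPKM in NC+VCR. It was 15.3, 20.5 and 21.4 FPKM in PTPN21+DMSO and 39.6, 41.4 and 34.1 FPKM in PTPN21+VCR. The VCR and DMSO groups were apart in both kinds of cell. CENPJ rose by 0.83 (SE 0.17, adjusted p by limma 0.00291) and 0.98 (SE 0.17, adjusted p by limma 0.00129) on the log2 scale, and the interaction of 0.15 (SE 0.24, adjusted p by limma 0.801) did not pass.

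GC content moved with the VCR changes. CENPB (66.2% GC in its longest transcript) and CENPM (61.4%) were among the most GC-rich members and SPC24 was at 53.4%, whereas CENPE was at 35.3% and SGO2 at 34.7%. Not all members followed this order. CENPX (63.9%) and CENPT (59.0%) were not called with VCR, and CENPA, with the largest rise in NC cells, was at 47.8%. Across genes, which are not independent replicates and share the same libraries, Spearman's rho between GC content and the log2 fold change with VCR was -0.324 over the 38 members and -0.164 over 11507 genes in NC cells, and -0.599 and -0.345 in PTPN21 cells. After a correction for GC content and length, chosen after seeing the data, CENPB, CENPM and SPC24 were still called lower and CENPE and CENPJ still called higher in both comparisons. In PTPN21 cells NUF2 and CENPK lost their higher calls under it, and 4 members were then higher and 9 lower, while in NC cells 6 were higher and 16 lower. The share of all genes called under this correction was not counted, so these counts are not read as a result about the members. Under it the median log2 fold change was -0.41 for members and -0.36 for all genes in NC cells, and -0.25 and -0.19 in PTPN21 cells.

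The next question was what PTPN21 overexpression did without drug. In PTPN21+DMSO against NC+DMSO, 3 members were higher (CENPA, CENPW and CENPN) and 4 lower (HJURP, KNL1, CENPK and CENPL), against 2.65% and 3.69% of all genes (6.34% in all). The median log2 fold change of the members was -0.08 and that of all genes -0.14. Under median ratio scaling, in which 3.63% of all genes were called higher and 1.15% lower, 4 members were higher (CENPA, CENPN, CENPW and NDC80) and 0 lower. The count of 7 fell to 0 when only these groups entered the fit and to 1 without the first PTPN21+DMSO library. The share of all genes called in those fits was not counted. Across the 38 members Spearman's rho between exon length and this log2 fold change was -0.436, and over 11507 genes -0.375.
From the values given above, CENPA was 46.0 to 62.4 FPKM in PTPN21+DMSO and at most 17.1 in NC+DMSO, a 5.28-fold ratio of means with a log2 fold change of 2.48 (SE 0.41, adjusted p by limma 0.0101), and this call held in 21 of 22 alternatives. CENPW was at least 236 FPKM in every PTPN21+DMSO library and at most 183 in NC+DMSO, with a log2 fold change of 0.60 (SE 0.12, adjusted p by limma 0.0178). CENPN, which reads CENP-A nucleosomes directly, was 27.7, 24.3 and 23.5 FPKM in NC+DMSO and 40.7, 37.0 and 39.1 FPKM in PTPN21+DMSO.
The CENPN groups did not overlap, and the log2 fold change was 0.61 (SE 0.13, adjusted p by limma 0.0251). With VCR, CENPN was 26.1, 19.9 and 21.7 FPKM in NC cells and 30.0, 30.6 and 29.9 FPKM in PTPN21 cells, which did not overlap either but did not pass (log2 fold change 0.41, adjusted p by limma 0.125). CENPN shares 12.8% of its exon bases with CMC2 on the opposite strand.
The 4 lower calls held in fewer alternatives. HJURP had a log2 fold change of -0.48 (SE 0.12, adjusted p by limma 0.0371) and KNL1 of -0.86 (SE 0.21, adjusted p by limma 0.0386), each called in 8 of 22 alternatives. CENPK was 52.2, 41.8 and 47.2 FPKM in NC+DMSO, 35.9, 50.2 and 36.3 FPKM in NC+VCR, 24.6, 33.0 and 31.2 FPKM in PTPN21+DMSO and 40.6, 49.3 and 38.6 FPKM in PTPN21+VCR. Its PTPN21+DMSO libraries were the lowest of the 12, with a log2 fold change of -0.66 (SE 0.17, adjusted p by limma 0.0430) called in 7 of 22 alternatives. CENPL fell from a mean of 20.8 to 13.0 FPKM (log2 fold change -0.63, adjusted p by limma 0.0473), called in 5 of 22.

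**Figure D4:**
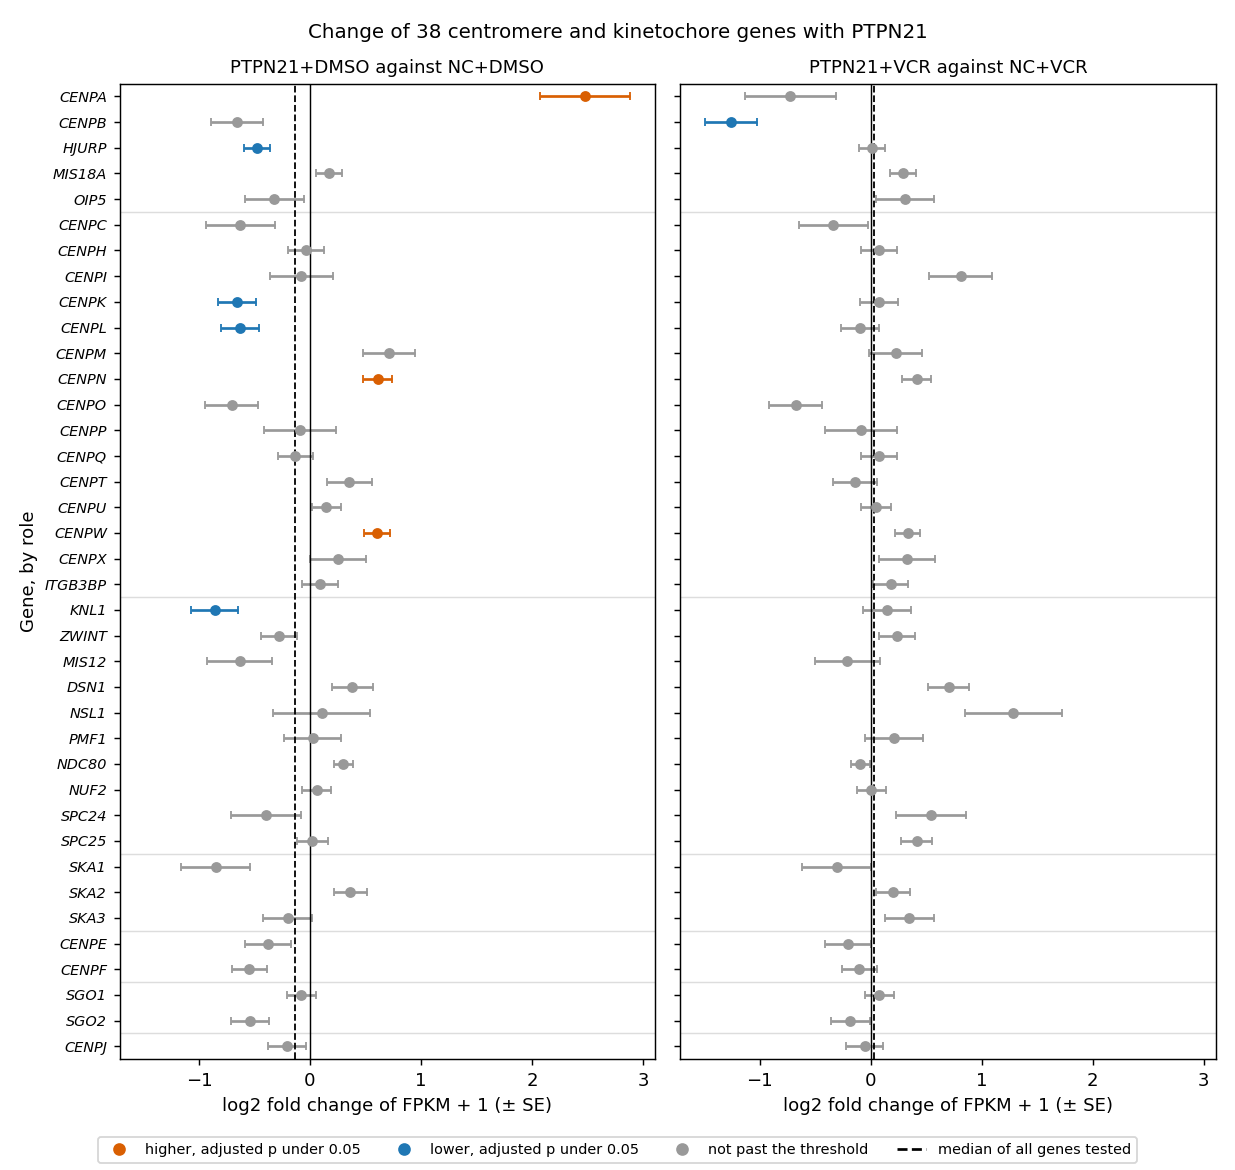
Log2 fold change of FPKM + 1 (x axis, ± standard error) of the 38 members, ordered by role (y axis), for PTPN21 against NC cells in DMSO (left) and in VCR (right), with colours and dashed line as in the plot of VCR changes. CENPA (2.48) is far to the right of every other member in DMSO and at -0.73 in VCR, where CENPB (-1.26) is the only member that passed.

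Under VCR few members passed the threshold between PTPN21 and NC cells. In PTPN21+VCR against NC+VCR, 0 members were higher and 1 lower, against 1.82% of all genes called in either direction, with 9 members (23.7%) and 17.1% of all genes at an unadjusted p under 0.05. The median log2 fold change was 0.08 for the members and 0.03 for all genes. The member called lower was CENPB, at 1.51, 0.690 and 1.42 FPKM in PTPN21+VCR against 4.18, 4.07 and 4.39 FPKM in NC+VCR, a 3.48-fold ratio of means (log2 fold change -1.26, SE 0.24, adjusted p by limma 0.0243), and this call held in 14 of 22 alternatives. In DMSO its log2 fold change was -0.66 (adjusted p by limma 0.108). CENPW, at 243 ± 8.09 FPKM in PTPN21+VCR and 193 ± 7.99 in NC+VCR (SD, n = 3), did not overlap but did not pass (log2 fold change 0.33, adjusted p by limma 0.163). Some log2 fold changes that did not pass were larger. They included NSL1 (1.285, adjusted p by limma 0.149), CENPI (0.81, 0.16) and DSN1 (0.70, 0.077), and in the other direction CENPA (-0.73, 0.397). DSN1 was called higher with the filter at a mean of 5 FPKM.

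The interaction asked whether the response to VCR differed between PTPN21 and NC cells. By limma 0 of the 38 members passed, against 0.129% of all genes, with 8 members (21.1%) and 14.0% of all genes at an unadjusted p under 0.05. The largest was CENPA, named after its values were seen, with an interaction of -3.20 (SE 0.58, adjusted p by limma 0.0562), so that its rise with VCR in NC cells was not shown to differ from its log2 fold change of -0.50 in PTPN21 cells at the threshold. It passed in 3 of 21 alternatives (median ratio scaling, adjusted p by limma 0.0364, the replicate block, 0.0291, and without the third NC+DMSO library, 0.0114), and over the alternatives its adjusted p ran from 0.0114 to 0.169. The median interaction of the members was 0.18 and that of all genes 0.17.

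Genes that work with the members were followed as lists, described by counts and medians. Of all genes tested, 7.91% were higher and 28.3% lower with VCR in NC cells (median -0.36). In PTPN21 cells 9.22% were higher and 19.3% lower (median -0.17). Under median ratio scaling these shares were 14.9% and 11.5% in NC cells, and 13.3% and 12.7% in PTPN21 cells. Of 11 spindle checkpoint genes, which hold back anaphase until kinetochores are attached, 1 was higher and 4 lower with VCR in NC cells and 3 were higher and 1 lower in PTPN21 cells, with medians of -0.31 and 0.24. CDC20, the activator of the anaphase-promoting complex, rose in both, from a mean of 22.9 to 44.1 FPKM in NC cells (log2 fold change 0.91, adjusted p by limma 0.000281) and in PTPN21 cells too (log2 fold change 1.03, adjusted p by limma 0.000141). Under median ratio scaling 3 were higher and 0 lower in NC cells, and 3 were higher and 1 lower in PTPN21 cells.
Of 4 chromosomal passenger genes, 0 were called with VCR in NC cells and 1 was higher in PTPN21 cells, CDCA8, a targeting subunit of the complex (log2 fold change 0.75, adjusted p by limma 0.0154). Among partners in CENP-A deposition and the inner centromere, CENPS, a histone-fold protein that pairs with CENP-X, averaged 42.6 FPKM in PTPN21+DMSO and 28.1 FPKM in PTPN21+VCR and was lower there (log2 fold change -0.58, adjusted p by limma 0.0220). In NC cells its log2 fold change with VCR was -0.23 (adjusted p by limma 0.3). Of 7 partners at microtubule ends, 1 was higher in NC cells and 2 in PTPN21 cells and 0 lower in either. KIF18A, a kinesin that shortens kinetochore microtubules, rose in both, by 0.53 (adjusted p by limma 0.0236) and 1.03 (adjusted p by limma 0.000681) on the log2 scale. Under median ratio scaling 2 passenger genes were higher in NC cells (AURKB and CDCA8) and 1 in PTPN21 cells, and 3 and 4 partners at microtubule ends were higher, with 0 lower in either list.
Genes of the cell cycle served as reference lists, to be read against the same shares and medians of all genes (medians -0.36 and -0.17). Of 10 G2/M genes, 3 were higher with VCR (CCNB1, CCNB2 and PLK1) and 4 lower in NC cells, and the same 3 were higher and 2 lower in PTPN21 cells, with medians of -0.36 and 0.02. CCNB1, the cyclin that drives entry into mitosis, rose from a mean of 60.1 to 139 FPKM in NC cells and from 64.7 to 132 FPKM in PTPN21 cells. Of 10 G1/S genes, 0 were higher and 8 lower in NC cells and 0 higher and 7 lower in PTPN21 cells, with medians of -0.74 and -0.58. CDC6, which licenses replication origins, averaged 31.1 and 13.9 FPKM in NC cells and 25.3 and 12.2 FPKM in PTPN21 cells. Under median ratio scaling 5 G1/S genes were lower in each comparison, while 3 G2/M genes were higher and 0 lower in NC cells and 4 higher and 1 lower in PTPN21 cells.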

How the data were processed

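RNA of 12 libraries in 4 groups, taken from the sample labels, was measured by RNA sequencing. The values the authors deposited are FPKM of 60671 genes, listed by human Ensembl identifier. The submitters' processing notes name fastp, Bowtie2 and the mouse build mm10, without roles. The counting program and annotation are not given in the sources used here. All 12 value columns matched a library by name, and no column was left without one. Positions, lengths and GC content came from GENCODE release 29 (GRCh38), which held 58453 (96.3%) of the identifiers.
From the deposited FPKM, log2(FPKM + 1) was fitted with limma 3.58.1 (R 4.3.3, intensity trend) as 4 group means without a block, over the 11591 genes whose FPKM averaged 1 or more. Benjamini-Hochberg adjustment covered these genes, and the threshold was 0.05. The fit was tested on simulated data. A count test was not used, since the table holds no counts. Depth was estimated from whole steps in low values of single-exon genes, of which 40.9% to 52.3% fell within 0.1 of a whole step, against 20% by chance.
For each comparison up to 6 members with the smallest p among those past the threshold were named with full statistics. These, and the member of highest mean in each role, got the value of every library, and other members were given where a sentence needed them. The members and gene lists were chosen with earlier results of these data known. Some genes of the lists are not reported here. The 22 alternatives (21 for the interaction) were TPM scaling, median ratio scaling, a pseudocount of 0.1, a filter at a mean of 5 FPKM or none, no trend, a replicate block, a fit to only the groups compared, each of the 12 libraries left out and, added after seeing the data, a correction for GC content and length alone and with the block. Tables used pandas 2.3.3 and numpy 2.4.6, and plots matplotlib 3.10.9, under Python 3.11.15.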

Additional observations from a re-analysis of the deposited data

Results flagged for a closer look

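KNL1 was picked out because all its libraries moved in opposite directions with VCR in the 2 kinds of cell. Its log2 fold change was -0.71 in NC cells and 0.29 in PTPN21 cells, and the groups did not overlap in either comparison. The test of that difference, the interaction, gave 1.00 (limma adjusted p = 0.204) and did not pass.
NDC80 was picked out because its libraries were all higher with PTPN21 in DMSO (log2 fold change 0.30) and all lower with PTPN21 in VCR (-0.095), again without overlap. The interaction was -0.40 (limma adjusted p = 0.209) and did not pass.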

How the results depend on the processing

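With VCR in NC cells the 17 called members became 11 under median ratio scaling (8 higher, 3 lower) and 14 to 18 when 1 library was left out. In PTPN21 cells the 12 became 7 to 14 when 1 library was left out, with 7 without the first or the third PTPN21+DMSO library, and no other alternative moved that count by over 1.5 times. For PTPN21 in DMSO the 7 calls became 4 under median ratio scaling, 3 with no filter, 3 with no trend, 3 with the replicate block, 1 with the replicate block together with the GC content and length correction, 0 with only the groups compared and 1 to 10 when 1 library was left out (1 without the first PTPN21+DMSO library, 2 without the third of either DMSO group, 3 without the first NC+DMSO library, the second PTPN21+DMSO library or any PTPN21+VCR library). For PTPN21 in VCR the single call (CENPB) became 2 at a mean FPKM of at least 5 and 0 with no filter, with only the groups compared and with the replicate block, and 0 to 1 when 1 library was left out (0 without the second NC+VCR library or any PTPN21+VCR library, while without the first NC+VCR library CENPB was lost and 1 other member was called higher). For the interaction, 0 calls became 1 (CENPA) under median ratio scaling and under the replicate block, and 0 to 1 when 1 library was left out (1 without the third NC+DMSO library). The replicate numbers did not pair the libraries (correlation of deviations -0.145 to 0.0583 over 18 pairs with the same number), so a call lost under the replicate block is not read as a weaker effect. For the 20 log2 fold changes chosen by the naming rule (CENPA in the interaction included), of 159 values under planned settings, 135 kept their side of the threshold, 22 lost it and 2 gained it. Of 240 values with 1 library left out, 206 kept it, 33 lost it and 1 gained it, and of 40 values under the added settings 33 kept it and 7 lost it. None of these changed direction. Among values that did not pass, NDC80 and CENPW with VCR in PTPN21 cells changed sign, from -0.13 to 0.25 and from -0.24 to 0.15 over the alternatives. The cause of these moves was not tested. The share of all genes called was counted in the main fit and, for the VCR comparisons and PTPN21 in DMSO, under median ratio scaling. It was not counted in the other alternatives, so the member counts there are not read as a result about the members. FPKM carries no counts, so precision at low values (CENPB in PTPN21+VCR, CENPI) could not be given as a counting error.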
